A study of Mus musculus with 4 samples.

Results

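The 5 cadherin genes Cdh2, Cdh5, Cdh11, Cdh13 and Cdh15 were followed across the cell classes of mouse bone marrow at 4 ages. They were picked by name, and all 5 are among the 26600 genes listed in every count table. The cells were Td+ cells sorted from the endosteal bone marrow of male Col2:Td mice (Col2-Cre Rosa26 lsl-tdTomato, strain label B6SJL/F1) aged 1, 1.5, 3 and 16 months, with 1 Chromium 3′ library per age, made from 2 pooled mice at 1 month and from 3 pooled mice at each other age. All 4 groups carry the same alleles and none was treated. Td is switched on by Cre under the control of Col2 sequences, so it marks cells that used these sequences at any time and their descendants, and the brightest cells were taken by the sort. With 1 library per age no test between ages is possible, age and library cannot be told apart, and each interval given covers counting error alone.

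Cadherins are cell surface proteins that bind a partner on the neighbouring cell in the presence of calcium. The classical members (Cdh2, or N-cadherin; Cdh5, or VE-cadherin; Cdh11, or OB-cadherin; Cdh15, or M-cadherin) hold catenins at the inner side of the membrane and through them the actin skeleton. Cdh13 (T-cadherin) has no such inner part, is tethered by a lipid anchor, and also binds adiponectin. In textbooks Cdh5 marks endothelium, Cdh11 the osteoblast lineage and other mesenchyme, Cdh15 skeletal muscle and its satellite cells, and Cdh2 nerve, heart and many mesenchymal cells.

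In GENCODE M21 (GRCm38) 4 of the 5 genes, all but Cdh2, lie on chromosome 8: Cdh11 at 102632095 to 102785642 on the minus strand, Cdh5 at 104101625 to 104144511, Cdh13 at 118283733 to 119324921 and Cdh15 at 122847966 to 122867397, the last 3 on the plus strand. The values are 3′ UMI counts per gene, so they do not say which exons were read.

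Cdh15 was found in a narrow set of classes outside its textbook tissue, so the 250 bases before its RefSeq start are shown (GRCm38.p6, chr8:122848124-122848373, plus strand), with each match to CANNTG, the E-box bound by basic helix-loop-helix factors, in capitals. The window lies inside the GENCODE gene, which starts further upstream.
Cdh15: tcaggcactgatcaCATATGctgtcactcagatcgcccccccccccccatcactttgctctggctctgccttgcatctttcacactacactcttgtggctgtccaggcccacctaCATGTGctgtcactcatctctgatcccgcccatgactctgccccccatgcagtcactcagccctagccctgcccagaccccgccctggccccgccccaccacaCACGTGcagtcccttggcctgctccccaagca
The window held 3 matches to CANNTG, which reads as CANNTG on either strand. At least 1 match was present in 66.2% of the 32851 RefSeq windows of this length. TGTGGT, the core bound by Runx factors, was found once on the minus strand next to the last E-box without overlapping it, against 14.0% of windows with it on either strand. GGGCGG was found 3 times, all on the minus strand, against 32.7% of windows.

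The files held 27907 barcodes, of which 24084 passed the study's stated limits of 200 to 6000 genes and at most 5% mitochondrial UMIs. Median depth of the kept cells was 10279.5, 9621, 6264 and 9670 UMIs at 1, 1.5, 3 and 16 months. The 16 month library stood apart: the mitochondrial limit removed 2987 of its 9229 barcodes against 98 to 326 in the others, its table lists 31054 genes against 27999, and it shares 1 or 2 barcodes with each other library where those share 30 to 61 among themselves. Cells were clustered without the 5 cadherins and without any marker used for naming. Of the kept cells, 15213 fell in mesenchymal clusters and 7951 in hematopoietic ones. The reporter transcript was present in both, at 2926 to 4591 CPM (counts of the gene per 1000000 summed UMIs) in mesenchymal and 955 to 2354 CPM in hematopoietic cells.

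Clusters were named from marker lists, as EMP-like and LMP-like (early and late mesenchymal progenitors), AD-like (adipogenic lineage), OB-like (osteoblasts), Ocy-like (osteocytes), CH-like (chondrocytes), EC-like (endothelial cells) and mural-like. A stromal class was named for Limch1 and Kcnk2 and an osteogenic class for Cadm1 and Spp1. The Limch1 Kcnk2 class was not found at 16 months or the Cadm1 Spp1 class at 3 months, where the Limch1 Kcnk2 cluster had Spp1 among its leading genes. Classes of at least 50 cells were ranked. The EC-like class fell short of this at 1.5 months, with 32 cells.

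**Figure D1:**
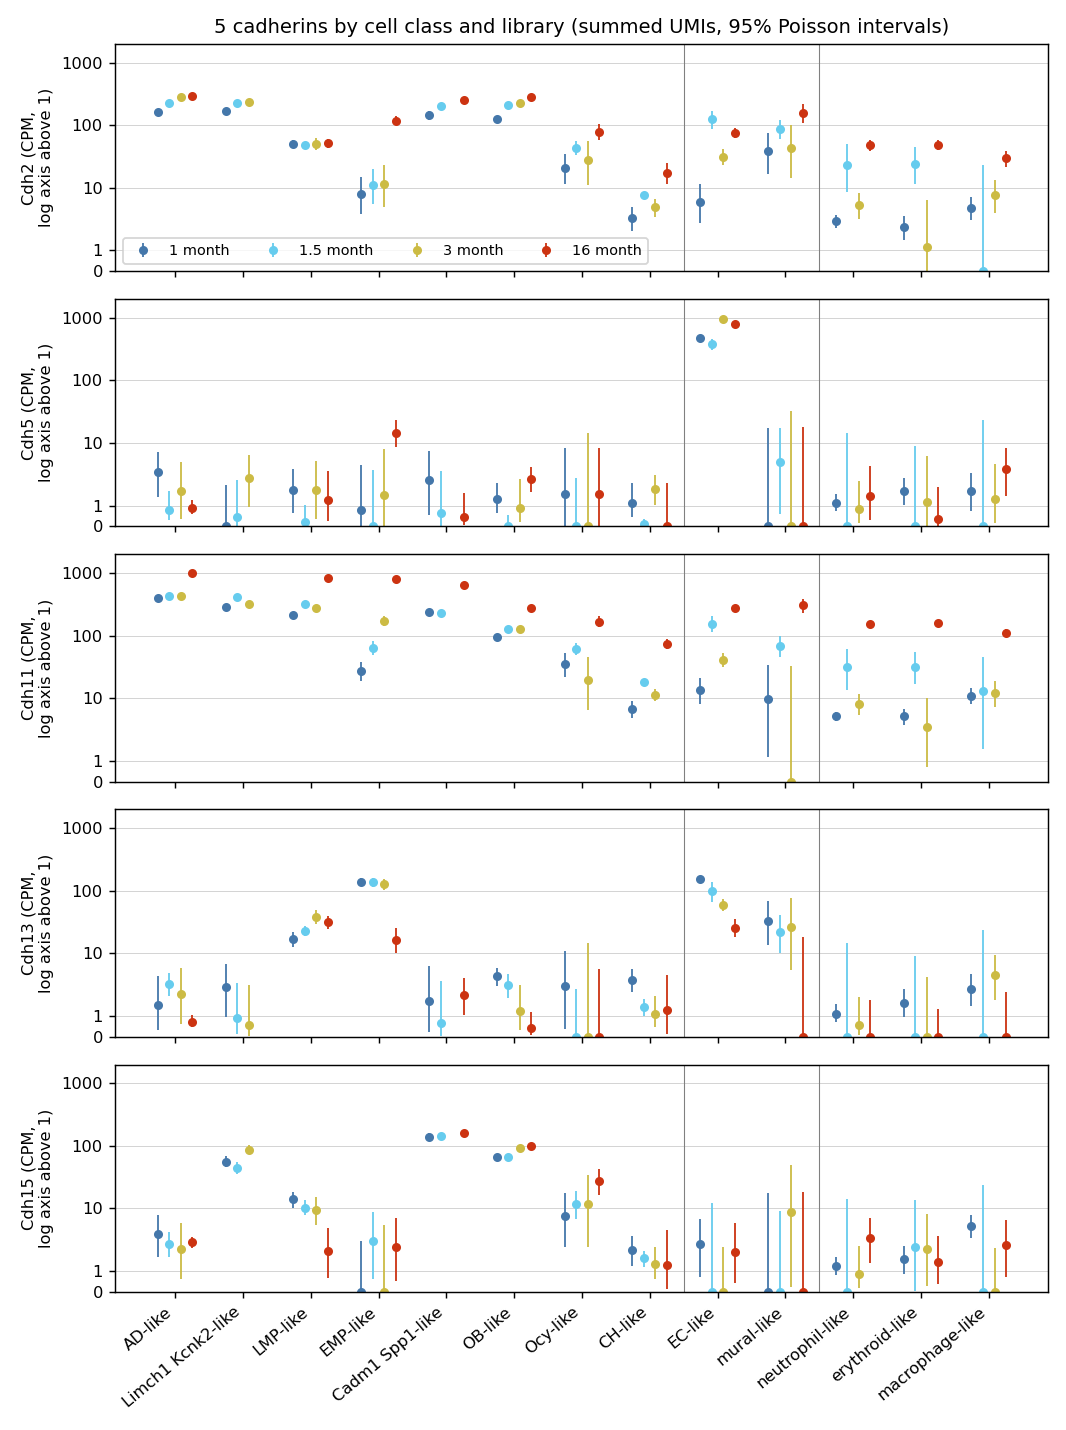
Summed CPM of each cadherin (vertical axes, logarithmic above 1 CPM) in 13 cell classes (horizontal axis) of the 4 libraries (colours), for classes of at least 20 cells, with 95% Poisson intervals as bars; grey lines part mesenchymal, vascular and hematopoietic classes. Cdh5 stands between 378 and 973 CPM in EC-like cells and below 15 CPM elsewhere. Cdh11 and Cdh2 are spread over the mesenchymal classes, and Cdh15 over the osteogenic ones and the Limch1 Kcnk2 class.

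Cdh5, the adhesion protein of endothelial junctions, was found almost wholly in EC-like cells. EC-like cells held 470.2 CPM at 1 month (95% Poisson interval 436 to 506), 378 CPM at 1.5 months (311 to 455), 973 CPM at 3 months (924 to 1024) and 808 CPM at 16 months (763 to 854). The next class among those ranked was 137-fold lower at 1 month (upper bound of the interval 341), 311-fold lower at 3 months (106 to 1509) and 55.1-fold lower at 16 months (34.7 to 93.2). Of all Cdh5 UMIs in kept cells, EC-like cells held 83.3%, 86.2%, 97.1% and 93.1% at 1, 1.5, 3 and 16 months. The 7 markers that named these cells (Pecam1, Kdr, Emcn, Esam, Egfl7, Ptprb, Tie1) did not include Cdh5.

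A highest class at least 3-fold above every other was the pattern of Cdh5 in the 3 libraries with a ranked EC-like class. The same rule was met by 10.7%, 9.48%, 12.4% and 12.2% of the genes at 20 CPM or more at 1, 1.5, 3 and 16 months. Cdh13 met it at 1.5 months, where no EC-like class was ranked, and Cdh2, Cdh11 and Cdh15 met it in no library. Within the mesenchymal classes, by contrast, Cdh2, Cdh11, Cdh13 and Cdh15 each spanned at least 10-fold between the highest and the lowest ranked class in all 4 libraries, against 16.2%, 22.9%, 21.8% and 20.7% of genes. Cdh5 stayed under 20 CPM in every mesenchymal class ranked.

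The 16 month value of 14.7 CPM of Cdh5 in EMP-like cells (8.69 to 23.2, from 18 UMIs in 146 cells) was the highest outside EC-like cells. The EC marker list stood at a summed 15.5 CPM in the same EMP-like cells and 4 of its 7 genes were above 0, against 3703 CPM in EC-like cells.

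Cdh11, the OB-cadherin gene, was highest in AD-like cells at every age with the clusters used here. The Limch1 Kcnk2 class came first at 1.5 months under 5 of 7 alternative settings, and at 16 months at resolution 1.2, where such a class was named and held 1241 CPM against 983 CPM in AD-like cells. AD-like cells held 397 CPM at 1 month (370.3 to 426), 429 CPM at 1.5 months (415 to 444), 425 CPM at 3 months (395 to 456) and 1013 CPM at 16 months (1002 to 1023). The 3 younger libraries lay close together and the 16 month library stood above them. After each cell was thinned to 3000 UMIs, 67.7%, 72.0% and 68.6% of AD-like cells of the 3 younger libraries had a Cdh11 UMI. At 16 months 3149 of 3385 did.

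The Limch1 Kcnk2 class came second in the 3 libraries that had it, at 289, 414 and 316 CPM. Its ratio to AD-like cells did not leave 1 at 1.5 months, where AD-like cells were 1.04-fold higher (0.963 to 1.12), and did at 1 month (1.37-fold, 1.23 to 1.54) and 3 months (1.34-fold, upper bound 1.50). LMP-like cells held 217, 326, 274 and 821 CPM at 1, 1.5, 3 and 16 months. In OB-like cells, which make bone matrix, Cdh11 was lower, at 96.0, 129, 129.8 and 273 CPM, and in CH-like cells lower again, at 6.71, 18.2, 11.3 and 73.3 CPM. The order AD-like above LMP-like above OB-like above CH-like held in each of the 4 libraries.

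Cdh2, the N-cadherin gene on chromosome 18, was carried by AD-like and osteogenic cells alike. AD-like cells held 165 CPM at 1 month (148 to 184), 227 CPM at 1.5 months (217 to 238), 286 CPM at 3 months (262 to 313) and 295 CPM at 16 months (289.6 to 301). OB-like cells held 127 CPM (119 to 134), 213 CPM (202 to 224), 231 CPM (215 to 248) and 285 CPM (273 to 297) at the same ages. Both classes were lowest at 1 month. The OB-like value at 1 month included a cluster of 191 cells led by Eln, Bok, Fam64a and Anln. It held 72.4 CPM, beside 163 CPM in the Bglap cluster.

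The class with the highest Cdh2 was not settled by these counts. AD-like cells came first at 1.5, 3 and 16 months and the Limch1 Kcnk2 class at 1 month. The ratio of first to second had an interval of 0.860 to 1.18 at 1 month and was 1.00 at 1.5 months (0.909 to 1.11) and 1.04 at 16 months (0.990 to 1.09), and the first 2 classes differed beyond counting error at 3 months (1.22, 1.07 to 1.40). The Cadm1 Spp1 class was close, at 144 CPM at 1 month, 201 CPM at 1.5 months and between 236 and 265 CPM (95% interval) at 16 months.

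Cdh2 and Cdh11 parted in several mesenchymal clusters. LMP-like cells, which held 217 to 821 CPM of Cdh11, held 49.9, 48.7, 51.2 and 51.3 CPM of Cdh2 at 1, 1.5, 3 and 16 months with overlapping intervals. The 16 month interval (42.7 to 61.1) also overlapped that of neutrophil-like cells of the same library (47.7 CPM, 38.8 to 58.0). At 3 months neutrophil-like cells held 5.35 CPM. Under alternative settings the LMP-like Cdh2 level went as low as 31.8 CPM at 1 month and 31.2 CPM at 1.5 months. A cluster led by Nppc, Mfap4 and Nov, which met no name at 1 and 1.5 months, held 14.6 and 15.5 CPM of Cdh2 with 197 and 281 CPM of Cdh11. At 3 months a cluster with the same leading genes, which 3 markers placed with tendon, held 3.83 CPM of Cdh2 (1.24 to 8.94) with 212 CPM of Cdh11 (187 to 238).

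**Figure D2:**
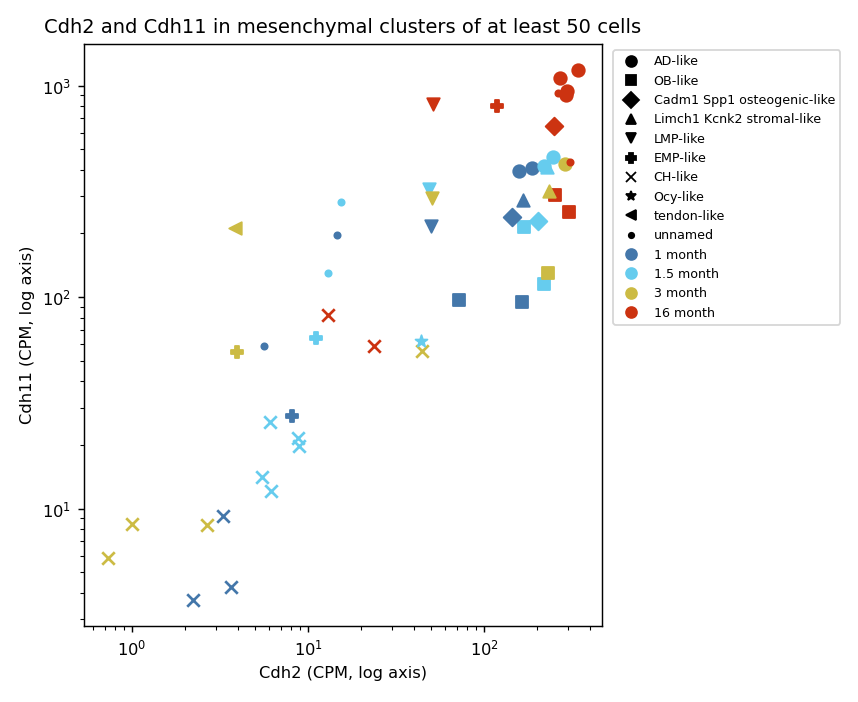
Cdh2 against Cdh11 (both in CPM on logarithmic axes) for each mesenchymal cluster of at least 50 cells, with the class as the symbol and the library as the colour. OB-like clusters, at 95.2 to 305 CPM of Cdh11, lie below AD-like clusters, at 394 to 1179 CPM, LMP-like cells held 48.7 to 51.3 CPM of Cdh2 in the 4 libraries, and the 3 month tendon-like cluster holds 212 CPM of Cdh11 at 3.83 CPM of Cdh2.

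Cells with both genes were counted after thinning to 3000 UMIs. In AD-like cells Cdh11 was found in 76.9% of cells with a Cdh2 UMI and 67.0% of those without at 1.5 months, and in 93.2% and 92.8% at 16 months. In the Limch1 Kcnk2 class the order was the opposite at 1 month (47.5% and 60.6%) and 1.5 months (64.1% and 74.8%) but not at 3 months, where 70 cells held both genes against 65.8 from the separate frequencies. In OB-like cells 41, 58, 46 and 80 cells held both at 1, 1.5, 3 and 16 months, against 38.5, 61.6, 44.8 and 73.6. Many cells thus held both genes, and the sign of the gap was not the same in all classes and libraries.

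Cdh15, the M-cadherin gene known from muscle, was found mainly in the osteogenic clusters and the Limch1 Kcnk2 class. The Cadm1 Spp1 class held 139 CPM at 1 month (119 to 162), 142 CPM at 1.5 months (124 to 162) and 158 CPM at 16 months (147 to 170.2). These 3 libraries did not differ beyond counting error, and the class was above OB-like cells in each, by 2.11-fold at 1 month (1.76 to 2.52), 2.11-fold at 1.5 months (1.80 to 2.48) and 1.57-fold at 16 months (1.42 to 1.74). The 1 month and 16 month folds depend on the settings. At 1 month the OB-like level was 69.0 to 96.6 CPM over the alternatives. At 16 months the Cadm1 Spp1 and OB-like levels were 128 and 117 CPM with up to 10% mitochondrial UMIs. As means over cells they were 147 and 67.9 CPM. Without the top 8% of doublet scores the 1 month levels were 129 CPM in the Cadm1 Spp1 class and 96.6 CPM in OB-like cells.

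OB-like cells held 66.1 CPM of Cdh15 at 1 month (60.8 to 71.7), 67.3 CPM at 1.5 months (61.4 to 73.6), 92.2 CPM at 3 months (82.2 to 103) and 101 CPM at 16 months (93.8 to 108). At the 2 younger ages the class included the Eln and Bok cluster, which held 28.9 CPM at 1 month (23.5 to 35.1) and 47.5 CPM at 1.5 months (34.7 to 63.6), whereas the Bglap cluster (osteocalcin) held 91.1 CPM (83.1 to 99.7) and 70.4 CPM (63.9 to 77.3). At 16 months the OB-like clusters m7 and m8 held 102 and 100.3 CPM, at median depths of 1241 and 26553.5 UMIs. Over the alternative settings the 16 month OB-like level was 67.9 to 117 CPM. The Limch1 Kcnk2 class held 56.3, 44.6 and 87.2 CPM at 1, 1.5 and 3 months. Over the alternative settings it ran from 43.2 to 91.9 CPM at 1 month and from 31.9 to 82.9 CPM at 1.5 months. Its 3 month level was 88.8 to 119 CPM. There it stood above OB-like cells under every alternative except the mean over cells (91.1 against 104 CPM).

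Outside these classes Cdh15 was low. Ocy-like cells, the osteocytes embedded in bone, held 7.52, 11.8, 11.7 and 27.2 CPM, LMP-like cells 14.0, 10.3, 9.41 and 2.05 CPM, and AD-like cells 2.26 to 3.93 CPM. OB-like cells held 55.3%, 50.1% and 44.0% of the Cdh15 UMIs of kept cells at 1, 1.5 and 16 months, and 307 of 512 UMIs at 3 months. At 3000 UMIs per cell, 33.3%, 29.9% and 32.4% of Cadm1 Spp1 cells had a Cdh15 UMI at 1, 1.5 and 16 months, against 0.483%, 0.234% and 0.429% of neutrophil-like cells at 1, 3 and 16 months.

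The muscle list was read in the same cells. In both the OB-like and the Cadm1 Spp1 class, Pax7, Myf5 and Myog were at 0 in every library, and Myod1 was at 0 except for 0.142 CPM in OB-like cells at 1.5 months. Desmin (Des) was present, at 1.96 to 38.8 CPM in OB-like cells and 9.46 to 20.3 CPM in the Cadm1 Spp1 class. Pax7, Myf5, Myog and Myod1 were thus at or near 0 where Cdh15 was highest, and Des was not. The list also held Chodl, whose values are not given here.

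Cdh13, the T-cadherin gene, was highest in EMP-like and EC-like cells. EMP-like cells held 137 CPM at 1 month (118 to 159.7), 137 CPM at 1.5 months (115 to 162), 126 CPM at 3 months (101 to 156) and 16.3 CPM at 16 months (9.95 to 25.2). EC-like cells held 152 CPM at 1 month (133 to 173), 97.9 CPM at 1.5 months (65.5 to 141), 59.0 CPM at 3 months (47.4 to 72.6) and 25.8 CPM at 16 months (18.3 to 35.2). The intervals of the EMP-like values overlapped over the 3 younger libraries, and the 3 month value went from 95.4 to 212 CPM over the alternative settings. Each EC-like value was below that of the next younger library, with intervals that overlapped between 1 and 1.5 months and between 1.5 and 3 months.

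At 1 month the EC-like and EMP-like classes did not differ beyond counting error (1.11-fold, 0.903 to 1.36). At 3 months EMP-like cells were 2.14-fold above EC-like cells (1.57 to 2.91), and at 16 months LMP-like cells came first, at 31.2 CPM (24.6 to 39.0), 1.21-fold above EC-like cells (0.811 to 1.83). LMP-like cells had held 16.9, 22.5 and 38.2 CPM at 1, 1.5 and 3 months. AD-like cells, the source of Adipoq, held 0.693 to 3.26 CPM of Cdh13 in the 4 libraries and OB-like cells 0.400 to 4.27 CPM.

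The clusters behind the EMP-like class were not alike. At 3 months a cluster of 117 cells led by Clec3b and Dpt held 169.9 CPM of Cdh13 (136 to 209.9) and 55.3 CPM of Cdh11 (36.8 to 80.0), and a cluster of 46 cells led by Fbln1 and Cygb held 5.46 CPM of Cdh13 (0.138 to 30.4) and 497 CPM of Cdh11 (400.0 to 610.0). At 16 months the EMP-like cluster, led by Prg4, Clec3b and Apod, held 797 CPM of Cdh11 (748 to 848). Its 7 EMP markers summed to 6071 CPM, against 10214 to 18378 CPM in the younger libraries.

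The highest Cdh13 of all stood outside the named classes. A small unnamed cluster led by Prg4, the gene of the joint lubricant, and by Hbegf held 579 CPM at 1 month (481 to 691, 21 cells) and 466 CPM at 1.5 months (348 to 611, 10 cells). Prg4 and Tppp3 were among its leading genes and among those of the 3 month EMP-like cluster led by Clec3b and Dpt. Whether that EMP-like cluster includes such cells was not tested. An unnamed cluster led by Tnmd and Angptl7, genes known from tendon, held 96.7 CPM (80.1 to 116) and 90.7 CPM (74.1 to 109.7).

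**Figure D3:**
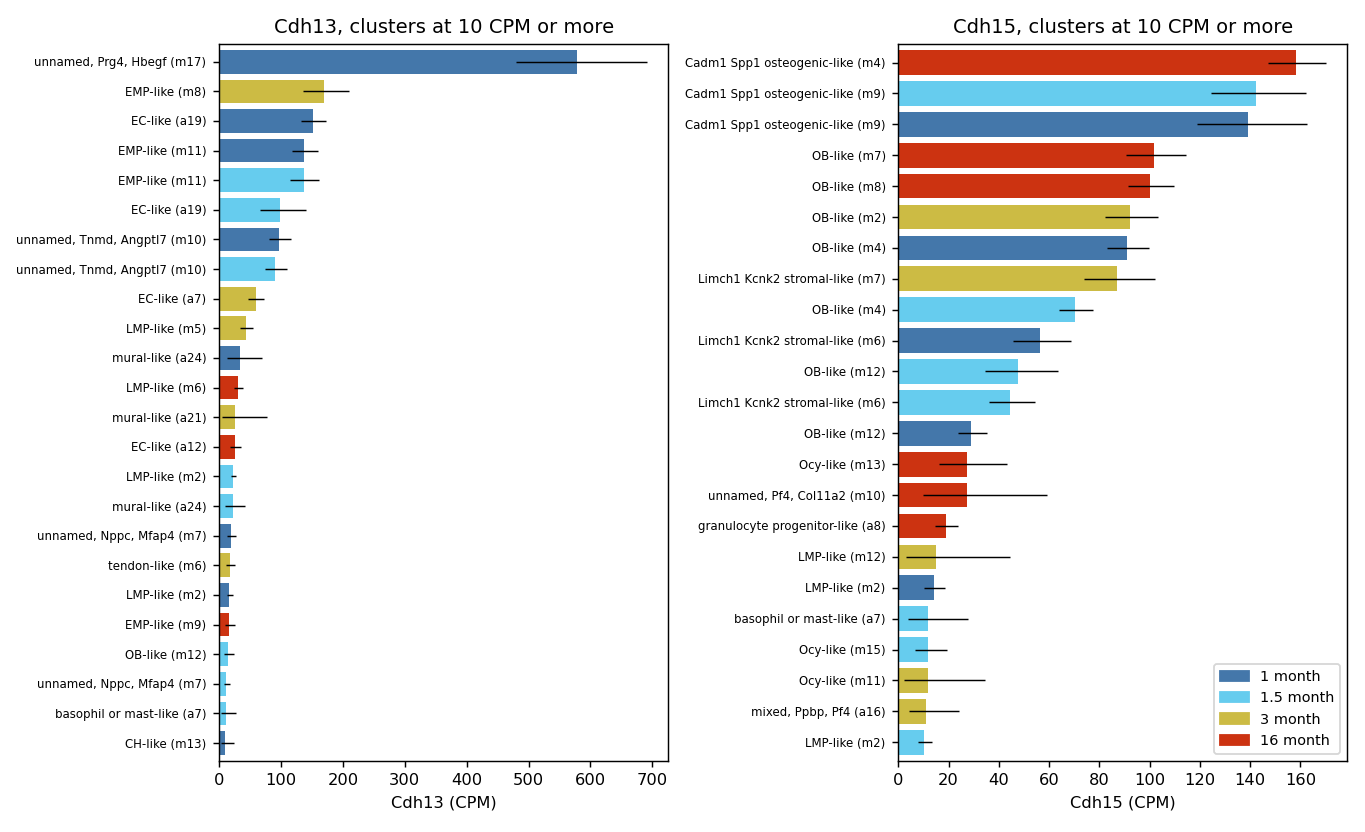
Cdh13 (left) and Cdh15 (right) in CPM, as bars from 0, in each cluster of at least 20 cells that reached 10 CPM, coloured by library, with 95% Poisson intervals. Cdh13 is led by the unnamed Prg4 cluster of 1 month at 579 CPM, with EMP-like and EC-like clusters next, and Cdh15 is led by the Cadm1 Spp1 clusters of 3 libraries at 139 to 158 CPM.

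Between libraries, a class was compared by CPM, and a gene was counted when it differed at least 2-fold with at least 10 CPM in the higher library. In AD-like cells, 1 of the 2 members that could be counted was higher at 16 than at 3 months and none lower, against 13.3% of 8191 genes higher and 4.48% lower: Cdh11 was 2.38-fold higher (2.22 to 2.57). Against 1 month Cdh11 was 2.55-fold higher (2.38 to 2.74), where 15.7% of genes were higher and 10.7% lower. Cdh2 in AD-like cells did not reach 2-fold in either comparison.

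OB-like and LMP-like cells gave the same gene. In OB-like cells Cdh11 was 2.10-fold higher at 16 than at 3 months (1.89 to 2.34), as 1 of 3 members counted, against 9.05% of genes higher and 5.65% lower. Over the alternative settings Cdh11 there ran from 104 to 154 CPM at 3 months and from 272 to 408 CPM at 16 months. In LMP-like cells it was 3.00-fold higher (2.71 to 3.32), as 1 of 3, against 23.9% of genes higher and 8.61% lower, while Cdh2 was at 51.2 and 51.3 CPM. Adipoq, an AD marker, also passed the fold in both classes. At 16 months neutrophil-like, erythroid-like and granulocyte progenitor-like cells held 152, 158 and 202 CPM of Cdh11, beside 273 CPM in OB-like cells. Neutrophil-like cells then held 47.7 CPM of Cdh2. In the Cadm1 Spp1 class Cdh11 was 2.70-fold higher at 16 months than at 1 month (2.39 to 3.07), as 1 of 3, against 21.2% of genes higher and 12.3% lower. Cdh15 in that class was 1.14-fold higher (0.957 to 1.36).

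In EMP-like cells all 4 members counted passed the fold between 3 and 16 months. The 16 month class was ranked under 5 of the 7 alternative settings for levels, and the Cdh5 fold starts from 1.45 CPM at 3 months. Cdh11 was 4.62-fold higher (3.81 to 5.63), Cdh2 10.2-fold (5.07 to 24.2) and Cdh5 10.1-fold (1.60 to 421), against 25.4% of genes higher, and Cdh13 was at 0.129 of its 3 month level (0.0752 to 0.212), against 9.77% of genes lower. From 1 to 3 months 1 of 3 members was higher, Cdh11 by 6.28-fold (4.26 to 9.49), against 11.9% of genes higher and 10.2% lower. At resolution 1.2 this call was lost and the direction turned, with Cdh11 at 27.9 CPM at 1 month and 17.6 CPM at 3 months.

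In EC-like cells Cdh13 was lower in both steps. From 1 to 3 months it was at 0.388 of its level (0.300 to 0.498), against 9.78% of genes lower, while Cdh5 was 2.07-fold (1.89 to 2.27), Cdh11 3.07-fold (1.83 to 5.36) and Cdh2 5.17-fold higher (lower bound 2.50), against 17.3% of genes higher. The AD markers in EC-like cells stood at a median of 3.76% of their AD-like level at 1 month (1.85% to 56.4% over the 7 genes) and 13.4% at 3 months (7.80% to 198%), beside 3.37% and 9.68% for Cdh11 and 3.65% and 10.9% for Cdh2. Without the top 8% of doublet scores the 3 month EC-like levels were 18.4 CPM of Cdh11 and 14.0 CPM of Cdh2, against 41.1 and 31.1 CPM with them. In that setting Cdh5 was at 582 CPM at 1 month and 1102 CPM at 3 months, short of 2-fold. The mean over cells, 515 and 975 CPM of Cdh5, was also short of it. From 3 to 16 months Cdh13 was at 0.437 of its level (0.292 to 0.644), against 10.1% of genes lower, and Cdh11 (6.84-fold, 5.23 to 9.08) and Cdh2 (2.44-fold, 1.72 to 3.50) were higher, against 12.7% of genes. Cdh5 was at 0.830 of its 3 month level (0.769 to 0.896), lower beyond counting error and short of 2-fold. These are differences between single libraries of pooled animals.

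**Figure D4:**
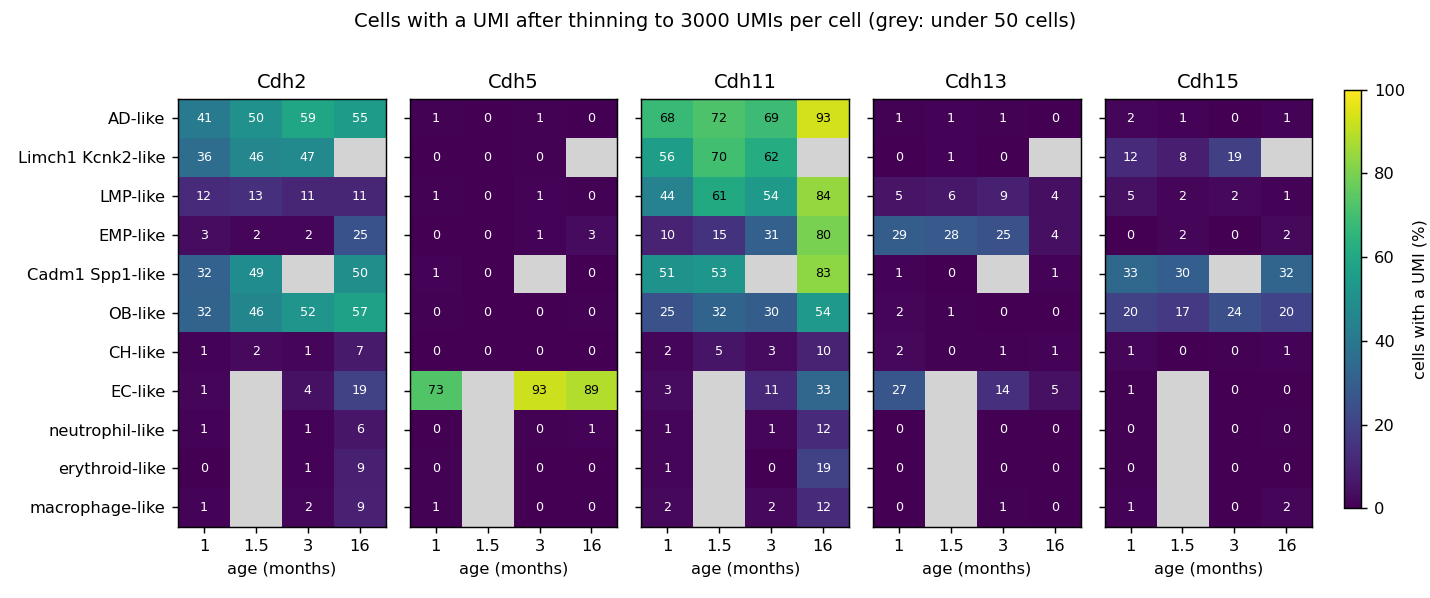
Percentage of cells with at least 1 UMI of each cadherin after every cell was thinned to 3000 UMIs, by class (rows) and age in months (columns), with grey where fewer than 50 cells remained. Cdh5 is found in 72.8% to 92.6% of EC-like cells of the 3 libraries shown, and every hematopoietic value before 16 months is at most 2.07%.

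Markers of AD-like cells were present in other classes at 16 months, and so were Cdh11 and Cdh2. Neutrophil-like cells held 152 CPM of Cdh11 (136 to 169.9) and 47.7 CPM of Cdh2 (38.8 to 58.0) at 16 months. They held 5.11 and 2.91 CPM at 1 month and 8.17 and 5.35 CPM at 3 months. At 16 months Cdh2 stood at 16.1% of its AD-like level in neutrophil-like cells, and Cdh11 at 15.6% of its own in erythroid-like cells, and the 7 AD markers stood at 12.6% to 14.4% in neutrophil-like cells. At 3 months these markers stood at 0.667% to 3.21%, with Cdh11 at 1.92% and Cdh2 at 1.87%. The share of neutrophil-like cells with a Cdh11 UMI at 3000 UMIs was 1.34%, 1.40% and 12.4% at 1, 3 and 16 months, at median depths of 11880.5, 6034 and 5885 UMIs before thinning, against 7172, 3934.5 and 9590.5 UMIs in AD-like cells.

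When the cells with the top 8% of doublet scores were left out before clustering, the 16 month neutrophil-like level was 45.2 CPM of Cdh11 and 17.9 CPM of Cdh2, and AD-like cells stayed at 999 and 292 CPM. EC-like cells at 16 months went from 281 to 187 CPM of Cdh11, with the 7 AD markers at 22.7% to 208% of their AD-like level. In granulocyte progenitor-like cells, Cdh15 at 16 months went from 18.9 to 0.722 CPM. EMP-like cells went from 797 to 679 CPM of Cdh11 and from 119 to 57.2 CPM of Cdh2. With all cells in, Cdh11 there stood at 78.7% of the AD-like level, above each of the 7 AD markers (23.9% to 67.5%). Whether any part of the neutrophil-like, erythroid-like, EMP-like, EC-like, LMP-like, OB-like and Cadm1 Spp1 values came from other cells was not tested.

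**Figure D5:**
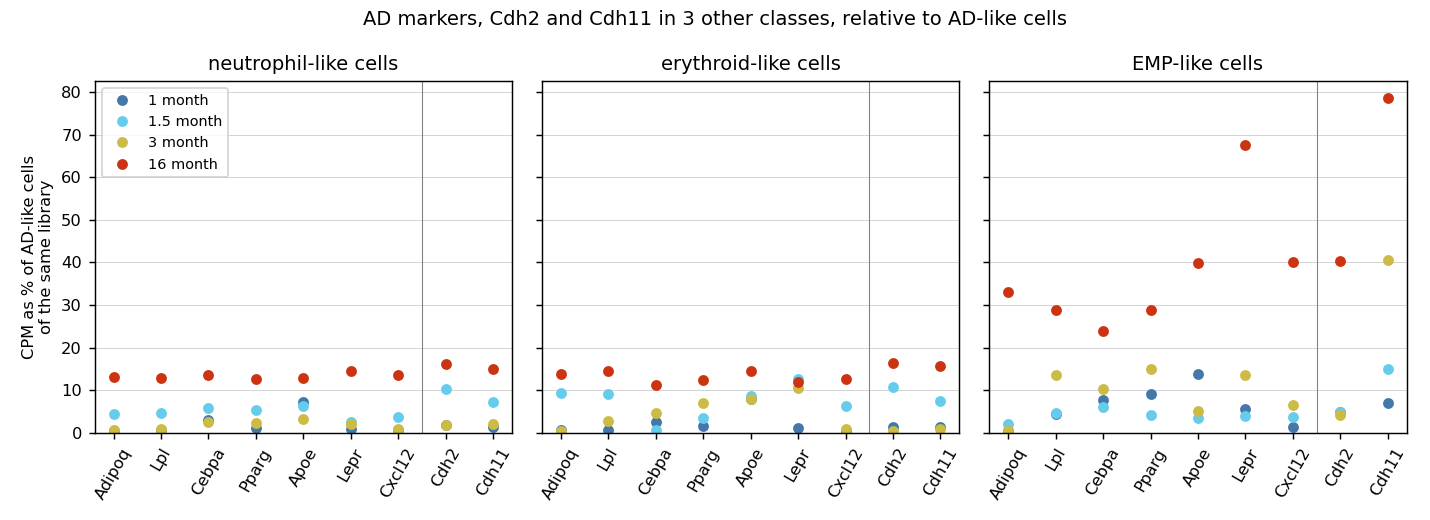
CPM of the 7 AD markers, Cdh2 and Cdh11 in neutrophil-like, erythroid-like and EMP-like cells as a percentage of the CPM in AD-like cells of the same library (colours), with 1 gene per position. At 16 months all 9 genes lie between 11.2% and 16.4% in neutrophil-like and erythroid-like cells, and Cdh11 reaches 78.7% in EMP-like cells.

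Within EC-like cells Cdh11 was the more frequent in cells without a Cdh5 UMI at 3 and 16 months. At 3000 UMIs per cell, Cdh11 was found in 9.91% of the 212 cells with a Cdh5 UMI and 29.4% of the 17 without at 3 months, and in 26.9% of 78 and 8 of 10 at 16 months. The cells without a Cdh5 UMI held 11146 and 24287 CPM of summed AD markers at 3 and 16 months, against 4968 and 11475 CPM in those with one. At 1 month the 46 cells without a Cdh5 UMI held 4.05 CPM of Cdh11 and 989 CPM of AD markers, against 18.0 and 1790 CPM in the 123 with one.

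Of 18 other classical or related cadherin genes, all listed in the tables, 1 reached 20 CPM in a ranked class. Of the 26600 genes shared by the 4 libraries 10187 did. The 1 was Cdh4 (R-cadherin) in EC-like cells at 16 months, at 26.4 CPM (18.9 to 36.0). It had been at 18.6 CPM there at 3 months and 1.34 CPM at 1 month. Cdh1 (E-cadherin) peaked at 2.79 CPM, in basophil or mast-like cells, and Cdh3 (P-cadherin) at 0.588 CPM.

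Of 9 catenin genes 6 reached 20 CPM in a ranked class, against 10187 of the 26600 genes shared by the 4 libraries. Ctnnb1 (beta-catenin) was highest in the Cadm1 Spp1 class at 16 months, at 721 CPM (697 to 746). It had stood at 319.9 and 402 CPM in that class at 1 and 1.5 months. From 1 to 16 months it passed the 2-fold there, as did 21.2% of genes. It also passed it in EMP-like, OB-like and several hematopoietic classes, but not in AD-like, LMP-like, CH-like or EC-like cells. Ctnna1 (alpha-catenin), Ctnnd1 (p120-catenin), Jup (plakoglobin), Ctnnal1 and Ctnnbip1, an inhibitor of beta-catenin, were each highest in EC-like cells, as was Cdh5: Jup reached 207 CPM there at 3 months and 6.69 to 77.8 CPM in LMP-like, OB-like and AD-like cells. Between 3 and 16 months none of the 5 catenins counted in AD-like cells was 2-fold higher and 1, Jup, was 2-fold lower, against 13.3% and 4.48% of all genes. In EMP-like cells, 2 of 6 (Ctnnb1 and Ctnnd1) were higher and none lower, against 25.4% and 9.77% of all genes.

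Adiponectin, a ligand of Cdh13, was made where Cdh13 was near 0: Adipoq stood at 1703, 2995, 1605 and 1553 CPM in AD-like cells. Its receptor genes were broadly present, with Adipor1 at 99.3 to 188 CPM in AD-like, EMP-like and EC-like cells of the 3 younger libraries and 52.1 to 115 CPM at 16 months. Among ranked classes Adipor2 was highest in EC-like cells at 16 months, at 93.2 CPM. Adipor1 was highest in Ocy-like cells at 1.5 months, at 230 CPM. As class sums, EMP-like and EC-like cells thus held both Adipor1 and Cdh13, with Cdh13 at 16.3 and 25.8 CPM by 16 months. Whether the same cells held both was not tested.

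The genes whose levels were most like each cadherin over the 49 class and library points were ranked among 10187 genes by Pearson's r of log2(CPM + 1). These points share libraries and include the 16 month hematopoietic classes that held AD markers, so r is a description. Cdh5 was nearest to Sema3g (r = 0.952), Gpr4, Pcdh12, Hoxb8 and She, and Cdh11 to Ptprd (r = 0.977), Zfhx4, Tnc, Bicc1 and Fgfr2. Cdh2 was nearest to S1pr3 (r = 0.944), Gnai1, Tpm1 and Ackr4. Cdh13 was nearest to Fbln2 (r = 0.903), Fam124a, Cav1, Ltbp4 and Hmcn1, and Cdh15 to Slc36a2 (r = 0.906), Adamts18, Car3, 4833422C13Rik and Mlip.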

How the data were processed

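The authors deposited 1 table of UMI counts per library, made from 10x Chromium 3′ reads with Cell Ranger 3.0.2 on a mm10 reference that carries the reporter, per the labels and the study's methods; the values are whole UMI counts, not normalized. The study's limits (200 to 6000 genes, 5% mitochondrial UMIs) were applied. Counts were log-normalized, total UMIs and mitochondrial share were regressed out, and 30 components of 2000 variable genes, without the cadherins and the markers, were clustered in Seurat 5.3.0 at resolution 0.8. The 1 and 1.5 month libraries were joined by canonical correlation, the others were clustered alone, and mesenchymal clusters were clustered again. Names needed 3 markers of 1 type that stood at 2-fold the median cluster or more, in 10% of its cells and at 25% of the highest cluster, with a marker among its 10 leading genes. Where this gave no name, the leading genes were taken against only the clusters without that type, which had to have the most markers. The 16 month AD-like clusters, the Eln and Bok cluster and several CH-like clusters were named in this second way. Of 76 clusters, 7 stayed unnamed or mixed. Scrublet scores (scanpy 1.11.5) marked doublets, which stayed in unless stated.

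UMIs of a gene were summed over the cells of a class and divided by the class total (CPM), with exact 95% Poisson intervals, exact binomial intervals for ratios, and shares of cells after thinning to 3000 UMIs, which left out shallower cells. No between-group test was run. The script was tested on simulated data. The named genes were the 5 cadherins, list genes at 20 CPM or more in a class of at least 50 cells, and the 5 genes most like each cadherin, of which 1 is not reported here; Cdh1 and Cdh3, and the genes that lead clusters, were named after their values were seen. The members and lists were chosen with earlier results of these data known. Total UMIs were 108227184, 63258961, 32672631 and 93269331 at 1, 1.5, 3 and 16 months.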

Additional observations from a re-analysis of the deposited data

How the results depend on the processing

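All alternatives were planned. For levels they were clustering at resolution 0.5 or 1.2, 20 components, up to 10% mitochondrial UMIs, the top 8% of doublet scores left out, the cadherins allowed among the variable genes, and the mean over cells of each cell's CPM, and for shares of cells 1000 UMIs per cell or no thinning. EC-like cells led for Cdh5 in 3 of 3 ranked libraries and EMP-like cells for Cdh13 in 2 libraries under all 7 for levels. AD-like cells led for Cdh2 in 3 libraries, in 1 at resolution 1.2 and in 2 to 4 under the other 6. They led for Cdh11 in 4 libraries, in 2 at resolution 1.2 and in 3 or 4 under the other 6. The Cadm1 Spp1 class led for Cdh15 in 3 libraries, and in 1 at resolution 0.5 and with 20 components, where it was ranked in 1 library alone. Of 98 class levels of at least 10 CPM, 33 moved by over 1.5-fold under some alternative. The 3 month EMP-like level of Cdh11 went from 173 to 17.6 CPM at resolution 1.2 and that of Cdh13 from 126 to 212 CPM. With 27.9 CPM at 1 month in that setting, the higher Cdh11 of 3 months was lost and its direction turned. The cause was not tested. Of the shares of cells with a UMI, 144 of those compared moved at 1000 UMIs per cell and 101 did not, and 138 moved without thinning and 107 did not. No paired analysis was possible because each age has 1 library. Depth limits the small classes: the 16 month Cdh5 value of EMP-like cells rests on 18 UMIs.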
